A study of Mus musculus with 10 samples.

Results

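The lysosomal cathepsins and legumain were examined in regenerating tibialis anterior (TA) muscle of mice with miR-501 deleted through a *Pax7*-driven Cre. The group holds 10 genes, *Ctsa*, *Ctsb*, *Ctsc*, *Ctsd*, *Ctsh*, *Ctsk*, *Ctsl*, *Ctss*, *Ctsz* and *Lgmn*, taken by name from the 25700 genes counted in each mouse. Muscle of 5 Pax7Cre and 5 miR-501KO mice was taken on day 6 after cardiotoxin (CTX) was injected into the TA to kill fibers and start regeneration. All 10 mice were C57BL/6 males of 12 weeks. Both genotypes carry Pax7Cre, a non-inducible Cre driven from the *Pax7* gene. The second group also carries the floxed *Mir501* on its single X chromosome (Pax7CremiR-501fl/Y). The labels give its genotype as miR-501 -/- and that of the first group as wild type. Cre from *Pax7* is known to act in the myogenic lineage, and other cells of the muscle are not its target. The miRNA itself was not analysed here, so neither its loss nor the cells that keep it were checked. Stranded mRNA libraries gave 18609222 to 24753258 counted reads per mouse. The markers of muscle were present: *Ckm*, the creatine kinase of mature fibers, had at least 91930 reads in each mouse and *Myh3*, the embryonic myosin of new fibers, at least 13547.

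Cathepsins are the proteases of the lysosome. Most are cysteine proteases of the papain family, *Ctsd* is an aspartic protease and *Ctsa* a serine carboxypeptidase. Legumain cuts after asparagine and trims several cathepsins from their single-chain form. They are made as inactive precursors, carried to the lysosome by mannose 6-phosphate receptors, and switched on at acid pH. Outside the lysosome, cystatins hold the cysteine proteases among them in check. In injured muscle, macrophages that clear dead fibers are rich in these enzymes, and fibers use them in autophagy.

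The deleted miRNA pairs with its targets through its seed, bases 2 to 8, and its sequence is given to show what was searched for in the mRNAs of the group. Mature miR-501-3p lies at chrX:7241270-7241291 on the minus strand (RefSeq, GRCm38.p6). Its neighbor miR-500-3p, at chrX:7237695-7237716 on the same strand, has the same seed and is not the miRNA targeted here. Capitals mark the seed.
miR-501-3p: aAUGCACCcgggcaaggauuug
miR-500-3p: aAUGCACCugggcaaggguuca

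The complement of the seed, GGTGCAT, was searched in every annotated 3′ untranslated region (GENCODE M21, GRCm38). Of 13989 tested genes with such a region, 1052 hold it, or 7.52%. Among the 10 members, *Ctsa* alone holds it, at chr2:164839371-164839377 on the plus strand, in 2 of its transcripts. The match starts at base 137 of a region of 785 bases and is shown in capitals with its neighbors.
Ctsa site: tctcacagcctGGTGCATcccagcctgggc
The base after the match is C, so the site lacks the A that often follows a seed match. In *Ctsa*, whose longest region has 1798 bases, the shorter match to bases 2 to 7 occurs up to 3 times, the shown site included. The other 9 members lack even this shorter match. Their longest annotated 3′ regions run from 218 bases in *Ctss* to 4761 in *Ctsl*. A match says only that these letters are present.

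No member differed detectably between the genotypes. All 10 passed the filter on low counts, and their lowest read number was 2107 for *Ctsk* in 1 mouse. With edgeR's quasi-likelihood test and Benjamini-Hochberg adjustment, 0 members were called at an adjusted p under 0.05, beside 0% of all 14410 genes tested. At an unadjusted p under 0.05 the count of members was again 0, beside 1.05% of all genes (0.382% higher and 0.666% lower in miR-501KO mice). The log2 fold changes ran from −0.06 for *Ctsc* to 0.03 for *Ctss*, where a positive value is higher in miR-501KO mice. Their median was −0.0038, beside −0.0042 over all genes. Of the members, 4 lay above 0 and 6 below, and 47.9% of all genes lay above 0. In bulk muscle, fewer cells of a type and less RNA per cell cannot be told apart.

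The precision bounds what could have been missed. Standard errors of the log2 fold changes lay between 0.0981 and 0.139, beside a median of 0.115 over all genes. The 95% intervals ran from −0.32, the lower end for *Ctsd*, to 0.33, the upper end for *Ctss*. In percent, no interval reached a fall of more than 19.9% or a rise of more than 25.5%. Unadjusted p-values from edgeR were between 0.600 and 1.00. Exact two-sided permutation tests over the mice gave 0.635 to 1.00, where the smallest p that 5 mice against 5 allow is 0.00794. These p-values set the difference between genotypes against the spread between mice, and they do not show that the levels are equal.

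**Figure D1:**
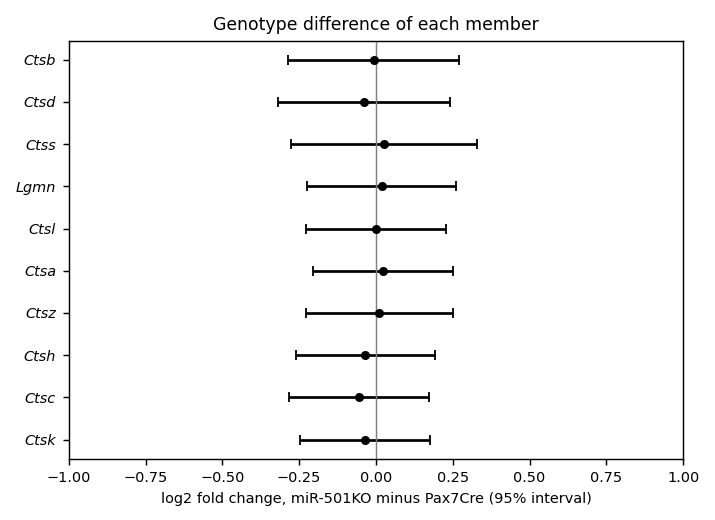
Log2 fold change of each member, miR-501KO minus Pax7Cre, with points at the edgeR estimate and bars for the 95% interval. Every interval crosses 0 and all lie between −0.32 and 0.33.

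*Ctsd* and *Ctsb* were the members with the most reads. *Ctsd* (chr7:142375911-142388038, minus strand, GRCm38 as for all members), the main aspartic protease of lysosomes, had normalized counts (TMM-scaled CPM, reads relative to the library total) of 2357, 1541, 1768, 2105 and 1984 in Pax7Cre mice 1 to 5. In miR-501KO mice 1 to 5 they were 1891, 2084, 1904, 1741 and 1875. Pax7Cre mice held both the highest and the lowest value, and the miR-501KO mice lay between them. Means were 1951 ± 313 (SD, n = 5) and 1899 ± 122 (SD, n = 5), and the log2 fold change was −0.04 with a standard error of 0.130.

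*Ctsb* (chr14:63122462-63145923, plus strand) encodes a cysteine protease that cuts within proteins and also takes dipeptides from their carboxyl end. Its CPM was 3143, 2216, 2515, 2981 and 2733 in Pax7Cre mice 1 to 5. The miR-501KO mice had 2827, 3007, 2561, 2480 and 2643. All 5 miR-501KO values fell inside the Pax7Cre range, and the means, 2718 ± 368 (SD, n = 5) and 2703 ± 213 (SD, n = 5), were almost level.

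*Ctss*, *Ctsl* and *Ctsk* encode endoproteases. *Ctss* (chr3:95526786-95556403, plus strand) is made mainly by antigen-presenting cells and keeps its activity near neutral pH. It had 1134, 798, 809, 851 and 800 CPM in Pax7Cre mice 1 to 5, and 1076, 1015, 750, 835 and 799 in miR-501KO mice. Within each genotype a few mice stood high, Pax7Cre mouse 1 and miR-501KO mice 1 and 2, and the other 7 lay between 750 and 851. The log2 fold change was 0.03 with the largest standard error of the group, 0.139.

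*Ctsl* (chr13:64359337-64370890, minus strand), which most cells express, had 452, 330, 410, 437 and 367 CPM in Pax7Cre mice 1 to 5. The miR-501KO mice had 448, 412, 372, 400 and 364. Means were 399 ± 50.1 (SD, n = 5) and 399 ± 33.6 (SD, n = 5), the closest pair in the group.

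*Ctsk* (chr3:95499256-95509362, plus strand, next to *Ctss*), a collagen-cutting protease best known from osteoclasts and also made by fibroblasts, was the member with the fewest reads. Its CPM was 144, 111, 155, 114 and 127 in Pax7Cre mice 1 to 5 and 133, 130, 133, 122 and 117 in miR-501KO mice. It was highest in Pax7Cre mouse 3, a mouse in which 6 of the 10 members were among the 3 lowest. The miR-501KO values were tight, with a coefficient of variation of 5.53% beside 14.5% in Pax7Cre mice. Defining markers of osteoclasts were near 0, with 3 to 13 reads per mouse for *Calcr*, 3 to 10 for *Oscar* and 2 to 20 for *Dcstamp*. Of the 6 markers in that list 3 passed the filter, and the list summed to 71.0 to 105 CPM in Pax7Cre and 79.4 to 102 in miR-501KO mice, most of it *Acp5* and *Atp6v0d2*, which macrophages also express.

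*Ctsc*, *Ctsh* and *Ctsz* encode proteases that trim protein ends. *Ctsc* (chr7:88278085-88310888, plus strand) takes dipeptides from the amino end and activates the serine proteases of immune cell granules. It had 233, 178, 214, 236 and 180 CPM in Pax7Cre mice 1 to 5 and 232, 196, 200, 181 and 191 in miR-501KO mice. Its log2 fold change, −0.06 with a standard error of 0.105, was the largest in size in the group and smaller than its standard error.

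*Ctsh* (chr9:90054152-90076089, plus strand), an aminopeptidase, had 297, 231, 221, 232 and 226 CPM in Pax7Cre mice 1 to 5 and 258, 267, 221, 218 and 215 in miR-501KO mice. As for *Ctss*, the same 3 mice were highest. *Ctsz* (chr2:174427493-174439039, minus strand), a carboxypeptidase, had 373, 271, 278, 345 and 314 CPM in Pax7Cre mice and 331, 372, 300, 291 and 298 in miR-501KO mice. Its means were 316 ± 43.2 (SD, n = 5) and 318 ± 33.7 (SD, n = 5).

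*Ctsa* and *Lgmn* complete the group. *Ctsa* (chr2:164832873-164841032, plus strand) encodes a carboxypeptidase that also shields the lysosomal enzymes *Neu1* and *Glb1* from degradation. It had 404, 311, 331, 425 and 385 CPM in Pax7Cre mice 1 to 5 and 388, 410, 369, 332 and 389 in miR-501KO mice. The sole member with a seed match thus had means of 371 ± 48.5 (SD, n = 5) and 378 ± 29.6 (SD, n = 5), with a log2 fold change of 0.02 and a 95% interval from −0.20 to 0.25. *Lgmn* (chr12:102394084-102439813, minus strand) had 643, 461, 498, 649 and 560 CPM in Pax7Cre mice and 605, 602, 536, 529 and 574 in miR-501KO mice. Every miR-501KO value of both genes lay inside the Pax7Cre range.

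**Figure D2:**
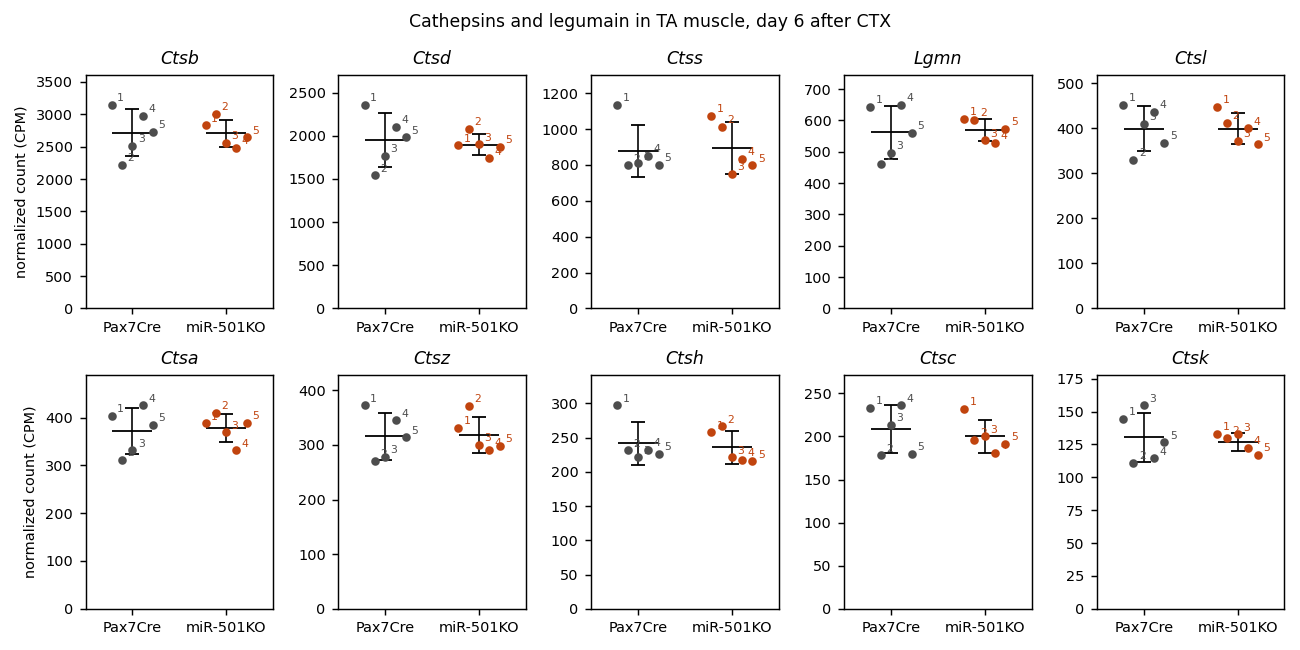
Normalized count (CPM) of each member in each mouse, with numbered points for mice, bars for the mean and SD of 5 mice, and axes starting at 0. The genotypes overlap for all 10 members, and Pax7Cre mouse 2 is the lowest mouse for 8 of them.

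Across the group, 47 of 50 miR-501KO values lay inside the Pax7Cre range of the same gene, and the 3 outside it, 2 for *Ctsh* and 1 for *Ctss*, lay below. The spread was wider among Pax7Cre mice for 9 of 10 members on the log2 scale, as it was for 79.2% of all genes tested. Coefficients of variation were 12.6% to 16.4% in Pax7Cre and 5.53% to 15.9% in miR-501KO mice. Summed over the 10 members, CPM was 7776 ± 1053 (SD, n = 5) in Pax7Cre and 7725 ± 586 (SD, n = 5) in miR-501KO mice. This sum was 0.570% to 0.948% of all counted reads. *Ctsb* gave 34.2% to 35.6% of it in each of the 10 mice and *Ctsd* 23.1% to 25.9%. The shares of some smaller members were less even, at 10.2% to 13.1% for *Ctss*, 2.77% to 3.59% for *Ctsh*, 2.31% to 2.97% for *Ctsc* and 1.37% to 2.15% for *Ctsk*.

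Levels were compared between genes per length, as CPM per kb of annotated exon over all 10 mice. The order was *Ctsd* (819 ± 95.9, SD, n = 10), *Ctss* (653 ± 99.8), *Ctsb* (448 ± 46.9), *Lgmn* (244 ± 26.4), *Ctsz* (220 ± 25.4), *Ctsk* (85.1 ± 8.95), *Ctsa* (79.4 ± 8.06), *Ctsl* (61.5 ± 6.20), *Ctsh* (53.0 ± 5.92) and *Ctsc* (35.2 ± 3.97). Neighbors differed by no more than the larger of their SDs for *Lgmn* and *Ctsz* and for *Ctsk* and *Ctsa*. *Ctsk* is thus last by reads and in the middle per kb of exon, since its exons cover 1512 bases and those of *Ctsl* 6489. By the longest transcript it was number 8 of the 10. Divided by the longest transcript instead, the neighbors within the larger SD were *Ctss* (654) and *Ctsb* (571), *Ctsh* (87.0) and *Ctsk* (85.1), and *Ctsl* (64.7) and *Ctsc* (63.4). *Lgmn* (284) and *Ctsz* (220) then differed by more than that, and *Ctsa*, at 103, lay above *Ctsh*.

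**Figure D3:**
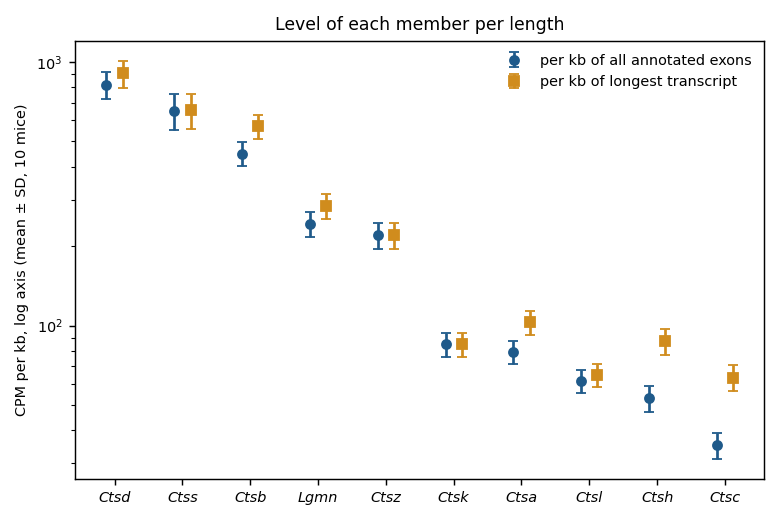
Level of each member in CPM per kb on a log axis, as mean and SD of 10 mice, by the length of all annotated exons (circles) and of the longest transcript (squares). *Ctsd* is highest by either length, at 819 and 905.

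The level of *Ctsd* is less certain than its read number. *Gm49369*, annotated on the same strand at chr7:142371096-142382667, shares 808 of its 1023 exon bases with *Ctsd*. It was listed with 15269 to 27026 reads, which is 46.4% to 54.0% of the reads of *Ctsd* in the same mouse. How reads that fit both genes were counted is not given in the sources used here. The log2 fold change was −0.05 for *Gm49369* and −0.04 for *Ctsd*. On the opposite strand, *Fdft1* shares 774 exon bases with *Ctsb* and *Pltp* 495 with *Ctsa*. *Fdft1* had 357 to 578 reads per mouse, against 41997 or more for *Ctsb*. *Pltp* had 3593 to 6493, against 5900 to 10606 for *Ctsa*, and the strand setting of the counting is not given in the sources used here. *Ctsl* shares 1742 exon bases with *Gm47123* on the opposite strand and 395 with the pseudogene *Gm49230* on its own, and neither was analysed here.

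Mice of the same genotype differed more than the genotype means. Pax7Cre mouse 1 was among the 3 highest mice for all 10 members and the highest for 6. Pax7Cre mouse 2 was lowest for 8, and miR-501KO mouse 4 was among the 3 lowest for 7. The highest mouse had 1.33 to 1.53 times the CPM of the lowest. Pax7Cre mouse 2 also stood apart on the first principal component of all tested genes, at 45.6 where the others lay between −27.9 and 17.5, and it had the highest mature fiber marker score, 0.75 above the mean on the log2 scale. The share of mitochondrial reads was highest in this mouse (13.98%) and next in miR-501KO mouse 4 (12.7%), both low for the members. It was lowest in Pax7Cre mouse 4 (6.59%), among the 3 highest for 7 members. In the other 7, Pax7Cre mouse 1 included, it was 9.65% to 10.8%, and its part in the members' levels was not tested. No batch is named in the labels.

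Over the 10 mice, the 45 pairs of members had a median Pearson r of 0.668 between their log2 CPM. In 17 pairs the permutation p of r passed 0.05 after Benjamini-Hochberg adjustment over the 45, and in 12 that of Spearman's rho. The share over pairs of other genes is not given here, so these counts do not set the members apart from other genes. *Ctsa*, *Ctsb*, *Ctsd*, *Ctsz* and *Lgmn*, singled out after their values were seen, had r between 0.867 and 0.958 in all 10 of their pairs, rho between 0.842 and 0.976, and adjusted permutation p between 0.00045 and 0.00659. Leaving out the 2 mice farthest from the median of the gene earlier in the alphabet left r at 0.764 or more. Leaving out Pax7Cre mouse 2 left it at 0.804 or more. *Ctsb* and *Ctsd* had the highest r over all 10 mice (r = 0.958, rho = 0.927, adjusted permutation p = 0.00045). *Ctsb* and *Ctsz* had the highest rho (0.976), and their r without Pax7Cre mouse 2 was 0.970, against 0.928 for *Ctsb* and *Ctsd*. *Ctsh* and *Ctss* formed another close pair by r (r = 0.933, adjusted permutation p = 0.0054) but not by rank (rho = 0.685, adjusted permutation p = 0.0696), with the same 3 mice high in both. *Ctsc* and *Ctsl* were close by both (r = 0.852, rho = 0.855, adjusted permutation p = 0.00941). Without the 2 mice farthest from the median of *Ctsh* and of *Ctsc*, these r were 0.871 and 0.775.

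*Ctsk* had the lowest correlations. Its r with the other 9 members was between 0.0122 with *Ctsa* and 0.501 with *Ctsl*, and 0 of its 9 pairs passed (lowest adjusted permutation p = 0.180). Without Pax7Cre mouse 2 the median of these 9 was 0.0284, and it was negative with *Ctsa* (−0.399), *Lgmn* (−0.337), *Ctsz* (−0.0587) and *Ctsb* (−0.0351). The 2 mice farthest from the median of the gene earlier in the alphabet were also left out. They were thus picked on *Ctsk* for *Ctsl*, *Ctss*, *Ctsz* and *Lgmn*, and on the partner for the others. The r moved both ways, up to 0.684 with *Ctsc*, 0.623 with *Ctss* and 0.438 with *Ctsz*. It fell to −0.433 with *Ctsd*, −0.362 with *Ctsb* and 0.0183 with *Ctsh*. For *Ctsh* the mice left out were Pax7Cre mouse 1 and miR-501KO mouse 2. The r of *Ctsk* thus depended on which mice were included. Whether r with *Ctsk* differs from r between the other members was not tested.

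**Figure D4:**
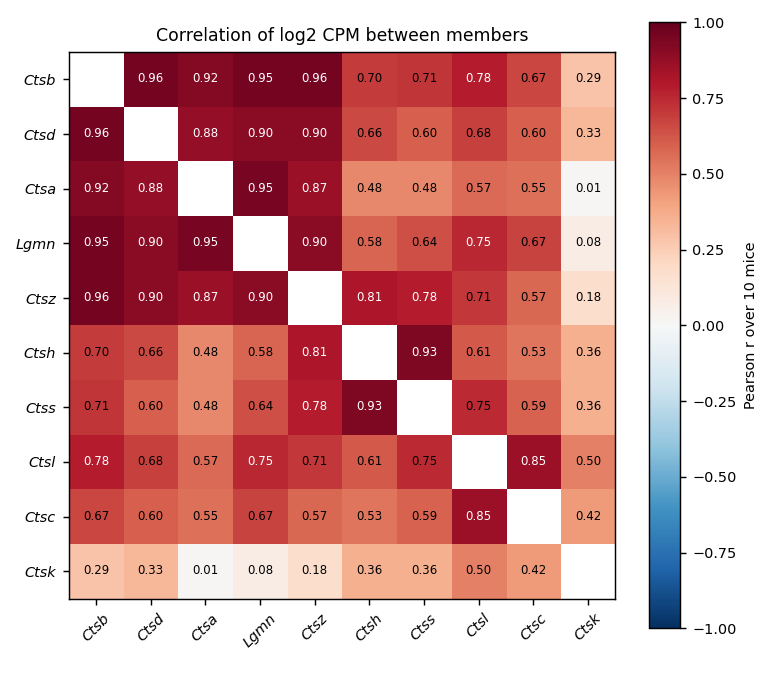
Pearson r of log2 CPM over 10 mice for each pair of members, from blue at −1 to red at 1. The 5 genes at the top left are paired at 0.867 or more, and the *Ctsk* row is palest, at 0.0122 to 0.501.

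The members were then set beside marker scores, each the mean log2 CPM of a list of genes. Of 30 pairs of a member and a score, adjustment was over all 30. The share of all tested genes that would pass with a score is not given here, so counts of members passing do not set them apart from other genes. With the macrophage score of 15 genes, 9 members had r between 0.687 and 0.869 and adjusted permutation p between 0.0196 and 0.0399, led by *Ctsc* (r = 0.869, rho = 0.867) and *Lgmn* (r = 0.867, rho = 0.891). Spearman's rho passed for 4, *Ctsa*, *Ctsb*, *Ctsc* and *Lgmn*. *Ctsk* had r = 0.230, rho = 0.297 and an adjusted permutation p of 0.556. Centring on genotype left the range of the 10 at 0.227 to 0.876. Without the 2 mice farthest from the median score, Pax7Cre mice 1 and 4, r was 0.246 for *Ctsk* and between 0.506 and 0.788 for the other 9. Without Pax7Cre mouse 2, r was still 0.670 to 0.848 for these 9, but 0 of the 30 pairs passed the adjusted test with 9 mice.

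With the mature fiber score of 12 genes, r was negative for all 10, from −0.808 for *Ctsc* to −0.272 for *Ctsh*, and 6 passed at adjusted permutation p between 0.0196 and 0.0399. Spearman's rho passed for *Ctsc* (−0.915) and *Ctsl* (−0.794). Part of these values rested on Pax7Cre mice 2 and 4: without the 2 farthest from the median score the r of *Lgmn* went from −0.703 to −0.180 and that of *Ctsa* from −0.689 to −0.198, while that of *Ctsc* was −0.749. The r of *Ctsk* moved the other way, from −0.445 to −0.857, and that of *Ctsh* from −0.272 to −0.513. With the fibro-adipogenic score of 8 genes, 5 members passed by r, between −0.813 for *Lgmn* and −0.714 for *Ctsz*, and 0 by rho. Without the 2 mice farthest from the median score, Pax7Cre mice 2 and 3, the r of these 5 lay between −0.649 for *Ctsd* and −0.365 for *Ctsa*. *Ctsk* had r = 0.137 and rho = 0.139 there (adjusted permutation p = 0.707), with r = 0.510 without Pax7Cre mouse 2 and −0.152 without Pax7Cre mice 2 and 3. The macrophage markers were all measured, with a summed CPM of 5821 to 8194 in Pax7Cre and 6130 to 7286 in miR-501KO mice, and 0 of the 15 was at 0 reads. The mature fiber sum was 19369 to 49462 in Pax7Cre and 27733 to 36836 in miR-501KO mice. As for the macrophage score, the share of all tested genes that would pass with these 2 scores is not given here. The part of cell make-up in the members' variation between mice was not tested.

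**Figure D5:**
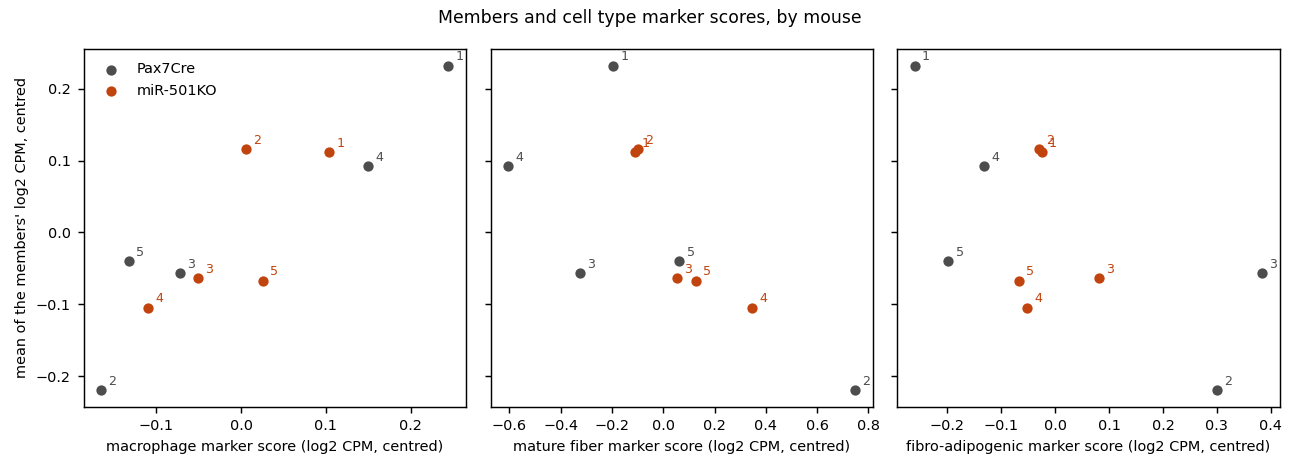
Mean of the members' centred log2 CPM in each mouse against the centred macrophage, mature fiber and fibro-adipogenic marker scores, with mouse numbers beside the points. Pax7Cre mouse 1 (0.23) and Pax7Cre mouse 2 (−0.22) are the ends of the members' range.

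The 10 tested genes whose pattern over the 10 mice was most like the mean of the members, among 9965 with at least 10 CPM, were led by *Vav1* (r = 0.975), a signaling protein of blood cells, and *C1qa* (r = 0.964), a complement gene of macrophages. *M6pr*, a receptor that carries these enzymes to the lysosome, came next (r = 0.956). *Scpep1* (r = 0.949), a lysosomal serine carboxypeptidase, was also among them, with *Abhd12*, *Uap1l1*, *Dera*, *Tmem86a* and *Coro1b*. The log2 fold changes of these named genes between genotypes lay between −0.06 and 0.02. *C1qa* is also in the macrophage list.

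The rest of the lysosomal pathway was taken from lists. In every list 0 genes passed, at an adjusted or an unadjusted p under 0.05. Of 14 other cathepsins, 4 passed the filter and 7 had no read in any mouse. *Ctsf*, a cysteine protease of many tissues, had 33.5 ± 4.57 CPM (SD, n = 5) in Pax7Cre and 29.9 ± 2.82 (SD, n = 5) in miR-501KO mice, and *Ctso* 31.8 ± 4.89 and 30.0 ± 2.91. The 14 summed to 61.7 to 81.8 CPM per mouse, against 6449 or more for the 10 members.

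Among 8 tested inhibitors the median log2 fold change was −0.03. Cystatin C (*Cst3*), secreted, had 569 ± 88.4 CPM (SD, n = 5) in Pax7Cre and 583 ± 59.5 (SD, n = 5) in miR-501KO mice, with a log2 fold change of 0.03. Cystatin B (*Cstb*), which acts inside cells, had 68.4 ± 12.8 and 69.7 ± 6.76. Its pattern over the mice had r = 0.934 with the members' mean, and that of *Cst3* r = 0.250. *Cst7*, cystatin F of immune cells, had 25 to 89 reads per mouse, and *Serpinb6a*, a serpin of cells, a log2 fold change of −0.11 with a standard error of 0.146.

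Of 14 sorting genes, 7 lay above and 7 below 0, with a median log2 fold change of −0.02. The log2 fold change was 0.01 for *M6pr*, 0.01 for *Igf2r*, the larger mannose 6-phosphate receptor, −0.08 for *Sort1*, a receptor that also sorts to the lysosome, and −0.05 for *Psap*, the precursor of the saposins. Their likeness to the members' mean differed: r was 0.956 for *M6pr*, 0.709 for *Psap*, −0.0467 for *Igf2r* and −0.604 for *Sort1*.

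In the 17 genes of lysosomal membrane and proton pump the median was −0.01. *Lamp1*, the most abundant membrane protein, had 652 ± 38.6 CPM (SD, n = 5) in Pax7Cre and 635 ± 10.1 (SD, n = 5) in miR-501KO mice, and *Cd63* 410 ± 49.0 and 410 ± 16.3. Of 33 other lysosomal hydrolases, 27 lay below 0, but the median was small, −0.04, and 0 passed. In this list *Grn* had a log2 fold change of −0.05, *Hexa* −0.11, and the partners of *Ctsa*, *Neu1* and *Glb1*, −0.11 and −0.05, with standard errors of 0.0821 and 0.0853. Of the 4 MiT/TFE factors, which drive lysosomal genes, *Tfeb* had a log2 fold change of 0.04 and *Tfe3* 0.04, with a list median of 0.04.

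Antigen presentation on MHC class II uses *Ctss* and legumain to cut the invariant chain *Cd74* and antigens. All 8 tested genes of this list lay above 0, with a median log2 fold change of 0.09, and 0 passed. *Cd74* had 1091 ± 290 CPM (SD, n = 5) in Pax7Cre and 1158 ± 134 (SD, n = 5) in miR-501KO mice, a log2 fold change of 0.09 with a standard error of 0.172. *H2-Aa* had 729 ± 209 and 780 ± 97.4. Over the 10 mice r with the members' mean was −0.0222 for *Cd74* and −0.0342 for *H2-Aa*.

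The promoters of the members were also searched for 3 motifs on both strands. The stretch was 250 bases before to 50 after each start (RefSeq, GRCm38.p6), and 8 of the 10 members had an entry, *Ctsb* and *Ctsh* excepted. *Ctsa* and *Lgmn* had 2 entries each. CACGTG was in 4 of these 10 promoters, of *Ctsa*, *Ctsd*, *Lgmn* and *Ctsl*, and in 7.15% of all 32851. GTCACGTG, which contains it, was in 3, of *Ctsa*, *Ctsd* and *Lgmn*, and in 2.25% of all. GAGGAAGT was in 2, of *Ctss* and *Ctsc*, and in 3.20% of all. The first pair of motifs is like the site that MiT/TFE factors bind and the last like that of PU.1, a factor of macrophages. The promoters of *Ctsz* and *Ctsk* held none of them. In *Ctsa* and *Lgmn* only 1 of the 2 entries held motifs. The other entry, chr2:164832622-164832921 for *Ctsa* and chr12:102439679-102439978 for *Lgmn*, held none and contains the start of the gene in GENCODE M21. A match in these windows is a description and not a bound site. Shown with motif letters in capitals are *Ctsa* (chr2:164833523-164833822, plus strand) and *Ctsd* (chr7:142387778-142388077, minus strand), each with a pair of GTCACGTG on one strand or the other, *Ctss* (chr3:95526536-95526835, plus strand), with GAGGAAGT on the minus strand, and *Ctsk* (chr3:95498960-95499259, plus strand), with none.
Ctsa: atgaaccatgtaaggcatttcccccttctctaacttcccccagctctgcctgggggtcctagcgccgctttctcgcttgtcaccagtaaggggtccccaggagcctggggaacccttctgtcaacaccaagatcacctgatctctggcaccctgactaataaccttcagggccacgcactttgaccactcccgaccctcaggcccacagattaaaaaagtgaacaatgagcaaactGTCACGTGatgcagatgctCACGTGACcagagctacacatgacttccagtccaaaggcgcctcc
Ctsd: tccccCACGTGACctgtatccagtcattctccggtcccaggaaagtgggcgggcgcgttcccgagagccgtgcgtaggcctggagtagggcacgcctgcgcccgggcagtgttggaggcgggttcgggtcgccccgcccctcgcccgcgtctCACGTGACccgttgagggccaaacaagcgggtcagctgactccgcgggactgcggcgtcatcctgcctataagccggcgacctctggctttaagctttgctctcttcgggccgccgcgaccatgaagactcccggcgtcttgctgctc
Ctss: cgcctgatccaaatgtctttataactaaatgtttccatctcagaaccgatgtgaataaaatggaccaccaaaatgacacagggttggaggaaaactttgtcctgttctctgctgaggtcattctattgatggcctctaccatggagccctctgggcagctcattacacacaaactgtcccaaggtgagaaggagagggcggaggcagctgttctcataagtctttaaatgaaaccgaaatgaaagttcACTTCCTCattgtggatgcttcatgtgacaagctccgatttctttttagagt
Ctsk: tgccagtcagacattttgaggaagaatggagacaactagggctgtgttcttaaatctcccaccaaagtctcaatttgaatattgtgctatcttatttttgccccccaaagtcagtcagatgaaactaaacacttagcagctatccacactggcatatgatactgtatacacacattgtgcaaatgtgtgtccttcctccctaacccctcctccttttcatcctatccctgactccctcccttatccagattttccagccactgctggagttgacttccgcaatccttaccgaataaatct
The *Ctsd* matches begin 245 and 98 bases before the start, and the *Ctsa* matches 14 bases before and 5 after it.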

How the data were processed

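RNA of whole TA muscle from 5 Pax7Cre and 5 miR-501KO mice was sequenced. Reads were aligned with STAR, by the study's methods with an annotation called ENCODE release 91, and the submitters' processing notes also name featureCounts, R 3.5.1 and GRCm38.p5. The authors deposited raw counts per Ensembl gene and mouse. The strand setting and the handling of reads that fit several genes are not given in the sources used here. Gene names came from GENCODE M21, which holds 25664 of the 25700 genes.

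In R 4.3.3, edgeR 4.0.16 was used with filterByExpr by genotype (minimum count 10, minimum total 15), TMM factors and the two-sided quasi-likelihood test, with Benjamini-Hochberg adjustment over 14410 genes. Log2 CPM used a prior count of 0.5. Exact permutation tests listed all 252 assignments of the mice. Permutation tests of correlations used 100000 resamples, with a smallest p of 1e-05. The fits were also run on simulated counts, with an outcome that is not reported here. The members and lists were chosen with earlier results of these data known. By rule, the text names the 10 members, the 2 genes of highest mean CPM in each pathway list and any at an unadjusted p under 0.05, partners of known role, and the 10 most alike genes, of which 1 is not reported here. *Gm49369*, *Fdft1*, *Pltp*, *Vps26a*, *Cd209a*, *Ckm*, *Myh3* and the osteoclast markers are outside this rule and were chosen after their values were seen. *Gm47123* and *Gm49230* were named from the annotation alone.

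Totals of 18609222 to 24753258 reads set the depth. In each genotype the mice varied beyond what read sampling gives, and no libraries were merged. The labels do not say that equal replicate numbers are pairs, and the mice were not treated as paired. Alternatives were other size factors, filters, tests (limma 3.58.1 voom, DESeq2 1.42.0) and covariates, a replicate block, and leaving out each mouse.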

Additional observations from a re-analysis of the deposited data

Results flagged for a closer look

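In 28 sets of 5 mice (each member, the members' sum and 3 marker scores, by genotype), 3 had a mouse whose gap to its nearest neighbor was over 0.71 of the whole range, the value that chance passes in about 1 in 20 such sets. Both members among them concerned Pax7Cre mouse 1. *Ctsh* had 297 CPM in this mouse and 221 to 232 in the other 4 (gap 0.856 of the range), and *Ctss* 1134 and 798 to 851 (gap 0.843). The fibro-adipogenic score was highest in miR-501KO mouse 3, at 8.81 on the log2 scale, where the other 4 lay between 8.66 and 8.70 (gap 0.712). Without Pax7Cre mouse 1, the log2 fold change was 0.05 for *Ctsh* and 0.14 for *Ctss*.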

How the results depend on the processing

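In 24 alternative settings, 0 members passed at an adjusted or an unadjusted p under 0.05, and 0 genes passed the adjusted threshold. The 240 member log2 fold changes ran from −0.12 to 0.14, with a lowest unadjusted edgeR, limma or DESeq2 p of 0.291. As all lay close to 0, 38 had the other sign, in 9 members. *Ctsb* was 0.0038 with limma voom, 0.0084 with the macrophage score as covariate and 0.037 with the mature fiber score. *Ctsd* was 0.0082 with the mature fiber score. *Ctsl* was 0.0091, 0.015 and 0.047 under the same 3 settings. Leaving out 1 mouse gave −0.035 to 0.077 for *Ctsa*, −0.075 to 0.050 for *Ctsb*, −0.11 to 0.038 for *Ctsd*, −0.084 to 0.050 for *Ctsh*, −0.091 to 0.033 for *Ctsk*, −0.063 to 0.048 for *Ctsl*, −0.049 to 0.14 for *Ctss*, −0.052 to 0.076 for *Ctsz* and −0.047 to 0.075 for *Lgmn*. *Ctsc*, −0.06 with all mice, stayed below 0, from −0.12 without miR-501KO mouse 1 to −0.0073 without Pax7Cre mouse 4. Of all genes at an unadjusted p under 0.05, 55 were higher and 96 lower. The higher count was 36 with at least 10 counts in every mouse, 100 with the macrophage score, 318 with the mature fiber score and 153 with no filter. The lower count was 210 with the mature fiber score and 159 with no filter. Leaving out 1 mouse gave 39 to 267 higher and 59 to 242 lower, with 267 and 186 without Pax7Cre mouse 2, 228 and 242 without Pax7Cre mouse 4, and 59 lower without miR-501KO mouse 1. The cause was not tested. Leaving out *Gm49369*, a setting chosen after seeing the data, changed no member's sign. List medians moved by less than the SD between mice of the list's mean log2 CPM in 161 of 161 cases. This rule does not follow the sign of a median, so it does not show that signs held.

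With the replicate number as a block, 87 genes were higher and 102 lower, and *Ctsl* was 0.0052. It changed no other sign or call among the members. Deviations of same-numbered mice correlated at 0.32, −0.15, 0.15, −0.28 and 0.19, and 2 of 5 pairs correlated best with their own number. These correlations cannot exclude pairing, and as the labels name no pairs, the numbers were taken as names.

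By the longest transcript, CPM per kb was 103 for *Ctsa*, 571 for *Ctsb*, 63.4 for *Ctsc*, 87.0 for *Ctsh* and 284 for *Lgmn*. Without Pax7Cre mouse 2, 0 pairs passed with the macrophage (9 with all mice), 0 with the mature fiber (6) and 0 with the fibro-adipogenic score (5), in tests on 9 mice. The r of the members that had passed was then 0.670 to 0.848, −0.801 to −0.454 and −0.733 to −0.619. The r of *Ctsk* became −0.399 with *Ctsa*, −0.0351 with *Ctsb*, −0.0587 with *Ctsz* and −0.337 with *Lgmn*. With 2107 or more reads per member and mouse, the spread between mice limits these comparisons more than read number.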

Other observations

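*Vps26a*, a subunit of the retromer that returns sorting receptors from endosomes, had 72.1 ± 4.30 CPM (SD, n = 5) in Pax7Cre and 66.3 ± 2.77 (SD, n = 5) in miR-501KO mice, with a log2 fold change of −0.12. It was singled out after its values were seen. The exact two-sided permutation p was 0.0159, the unadjusted edgeR p 0.0911 and the adjusted edgeR p 1.00.

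*Cd209a*, a dendritic cell gene, was the 1 gene of the marker lists at an unadjusted edgeR p under 0.05. It had 11.3 ± 1.87 CPM (SD, n = 5) in Pax7Cre and 8.74 ± 1.63 (SD, n = 5) in miR-501KO mice, with a log2 fold change of −0.37 and a standard error of 0.148. The unadjusted edgeR p was 0.0256, the adjusted edgeR p 1.00 and the exact permutation p 0.0714. The summed CPM of the 7 dendritic cell markers was 110 to 143 in Pax7Cre and 108 to 140 in miR-501KO mice.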
